A study of Rattus norvegicus with 10 samples.

Results

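Pcp4 (Purkinje cell protein 4) and 8 genes of calcium transport and sensing were followed in the RNA of rat milk whey, the fluid left after fat, cells and casein are removed, and in serum. The members were all non-control array probes whose gene name was Pcp4, Calm2, Calm3, Atp2b1, Atp2b2, Atp2c1, Atp2a2, Casr or Pthlh. This gave 14 probes of 9 genes, of 41012 probes and 35469 gene names on the array. Pcp4 was selected on its rise between the days on these same arrays, so its values are a description without a test. The other 8 genes were chosen by their function, by someone who knew results of these arrays, so their p-values describe these arrays and are not independent support for the choice.

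Whey came from 3 dams of the inbred strain F344/N on d 2 (colostrum), d 9 and d 16 postpartum, 1 array per dam and day. Per the study's methods the dams were received pregnant at 14 weeks of age, and for each milking they were kept apart from the litter for some hours, injected with oxytocin and lightly anesthetized with sevoflurane. No treatment distinguished the days. Serum RNA of dams on d 21 was pooled on 1 array, which leaves serum without replicates. The values were log2 processed signals (1-colour Agilent intensities), quantile normalized over the 10 arrays, and a probe's levels are compared between arrays but not with those of another probe.

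Calcium enters milk through the secretory epithelial cell of the mammary gland. Cytosolic calcium is kept low by pumps that move it into the endoplasmic reticulum (Atp2a2, SERCA2), into the Golgi apparatus (Atp2c1, SPCA1) and across the plasma membrane (Atp2b1 and Atp2b2, PMCA1 and PMCA2). PMCA2 is the pump of the apical membrane and carries much of the calcium of milk. The calcium-sensing receptor (Casr) reads extracellular calcium, and the parathyroid hormone-related protein (Pthlh) is secreted by the lactating gland and mobilizes maternal bone. Calmodulin, made from several genes including Calm2 and Calm3, is the calcium sensor of the cytosol, and Pcp4 is a small IQ-motif protein that binds calmodulin and alters its calcium binding.

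The first 30 bases of the 60-base probes that carry the results are given here as printed in the array files, because each value below is the signal of 1 such sequence. On rat build rn4 the Pcp4 probe lies at chr11:36889298-36889357, the Calm2 probe at chr6:10952801-10952860, the Pthlh probe at chr4:184887732-184887791, the Atp2b2 probes at chr4:149655700-149655759 and chr4:149657829-149657888, and the Atp2c1 probes at chr8:110516147-110516206 and chr8:110517835-110517894. Whether a probe lies in a coding or untranslated exon was not looked up, because no annotation of that build was used here.
Pcp4 probe A_44_P346637: gtgagcagcttaatctgtctgtctccatta
Calm2 probe A_44_P439722: cttgtacagaactgttaatttgccttttct
Atp2b2 probe A_44_P139697: gcagttcaccccattagggggtcaataatt
Atp2b2 probe A_44_P535337: atccgtttctttgtatctatatcaacgtat
Atp2c1 probe A_43_P13146: attcagtcttgtttgttttacagtagaggt
Atp2c1 probe A_44_P506069: gggtctcacttcatcagtgtgcattgtgtc
Pthlh probe A_43_P15246: gactgatctccctctgcgcatgtaaaaatg

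The arrays differed in brightness. The 75th percentile of the processed signal lay between 12.51 and 83.21 on the 9 whey arrays and was 4.11 on the serum array, and 8131 to 15585 probes were detected per whey array against 3529 in serum. The d 2 samples of dams 1 and 2 were on slide 1. Slide 2 carried the d 2 sample of dam 3 beside all d 9 samples. All d 16 samples and serum were on slide 3, scanned on another day, so that d 16 and its slide cannot be told apart. In whey, all 9 genes of the list for secretory mammary epithelium (such as Csn2, Wap and Lalba) were well above background on all 9 arrays. In serum 7 of them were well above background too. Of the member probes, 11 probes of 8 genes were detected in whey, that is, well above background with a signal over 20 on at least 1 whey array, and 8 probes were well above background on all 9. Detection needs only 1 bright day, so the counts below are of tested probes and not of all members.

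Pcp4 was present in whey on every day, was far brighter on d 9 than on d 2 and brighter again on d 16, and was not above background in serum. Its log2 level was 8.71, 8.07 and 8.46 on d 2 in dams 1, 2 and 3. It was 11.70, 11.87 and 12.54 on d 9. On d 16 it was 14.80, 14.75 and 14.40, so that the 3 days did not overlap and the order d 2, d 9, d 16 held in each dam. The day means were 8.41 ± 0.32, 12.04 ± 0.44 and 14.65 ± 0.22 (SD, n = 3). The d 9 mean was 12.3-fold and the d 16 mean 75.4-fold the d 2 mean, and d 16 was 6.13-fold d 9. These are the changes the gene was selected on: among the 16849 probes tested its difference ranked 8th (d 9 over d 2), 3rd (d 16 over d 2) and 9th (d 16 over d 9). Among those that were measured above background on every whey array, 2, 1 and 3 had a larger one.

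The difference varied among the dams. On d 9 the log2 level exceeded that of d 2 by 2.99 in dam 1, 3.80 in dam 2 and 4.07 in dam 3. On d 16 it exceeded that of d 9 by 3.101, 2.88 and 1.87. Dam 3, with the largest difference over the first interval, thus had the smallest over the second. Both use its d 9 array, which had the highest 75th percentile of all arrays (83.21), so they are not separate observations. Before normalization the processed signal of the probe already ran from 217 to 452 on d 2, from 2973 to 22330 on d 9 and from 26180 to 48220 on d 16, without a saturated spot. Within slide 2, which held 1 d 2 array and the 3 d 9 arrays, the difference from d 2 to d 9 was 3.57 against 3.62 over all arrays. Scaling each array to its spike-in controls gave 5.06 for d 9 over d 2, 6.80 for d 16 over d 2 and 1.74 for d 16 over d 9.

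**Figure D1:**
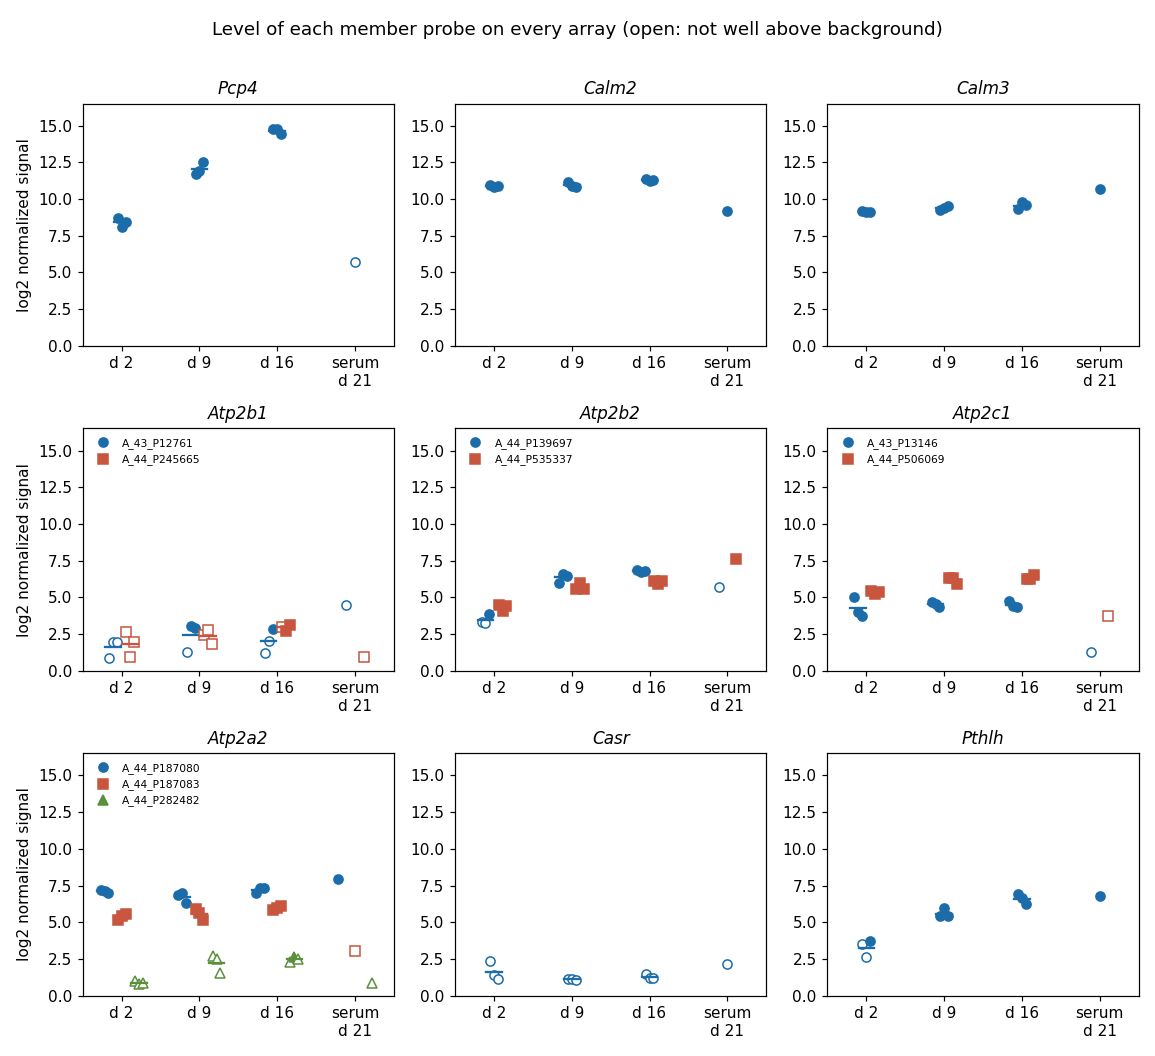
Log2 normalized signal (y axis) of each member probe on every array, by day of whey and for serum (x axis). Each point is 1 array, the short lines are the means of 3 dams, and open points were not well above background. Pcp4 climbs from 8.07 to 8.71 on d 2 to 14.40 to 14.80 on d 16, the Atp2b2 and Pthlh probes sit lower on d 2 than on the later days, and Casr has open points alone.

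Among the 10 other tested probes, of 7 genes, 4 were higher on d 9 than on d 2, 5 were higher on d 16 than on d 2, and 0 changed between d 9 and d 16 (limma, adjusted p under 0.05 over all probes tested). The risers of the first interval were both probes of Atp2b2, 1 of the Atp2c1 probes and Pthlh. On d 2 the signals of Atp2b2 on A_44_P139697 (at most 16.64) and Pthlh (at most 14.82) were under the minimum of 20. These probes entered the test only through the later days, on which they are high, so their calls are not independent of that filter. Calm2 joined the risers from d 2 to d 16. Another background correction, normexp, adds an offset and so narrows differences of dim probes. With it 7 of the 10 were called over those days, against 4941 of all 16849 probes. With a minimum signal of 100, 7 of 8 tested were called, against 4133 of 9605. With the slide as a random block it was 7 of 10, against 5695 of 16849. Of all 16849 probes, 17.7% changed between d 2 and d 9, 11.2% upward and 6.46% downward. Between d 2 and d 16, 28.5% changed, 16.0% upward and 12.5% downward. Between d 9 and d 16, 1.42% changed, 0.558% upward and 0.861% downward. The median log2 change of the 10 probes was 0.53, 0.50 and 0.34 over the 3 pairs of days, against 0.11, 0.04 and -0.06 over all probes. The 2 comparisons with d 2 share the d 2 arrays, so their counts are not separate evidence. At an unadjusted p under 0.05, limma called 3 of the 10 probes from d 9 to d 16, and the Tukey-Kramer test 1 unadjusted and 0 after adjustment. Of all 16849 probes, these 3 ways of calling gave 3157, 2040 and 0. With the slide as a block, which uses slide 2 alone for d 2 against d 9, 2 probes remained called from d 2 to d 9, both of Atp2b2. Of all 16849 probes, 499 were called with this block.

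**Figure D2:**
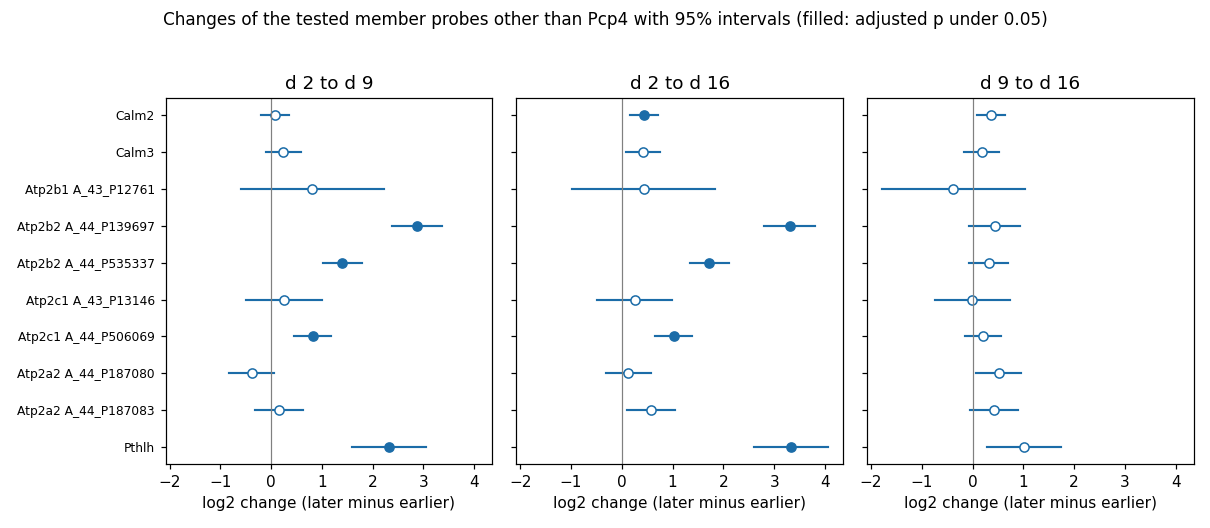
Log2 change (x axis, later minus earlier day) of the 10 tested member probes other than Pcp4 (y axis) with 95% intervals from limma, 1 panel per pair of days. Filled points passed an adjusted p of 0.05: 4 in the left panel, 5 in the middle and 0 on the right.

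Atp2b2, the apical plasma membrane pump, rose on both its probes. On A_44_P139697 the log2 level was 3.32, 3.25 and 3.85 on d 2, where only dam 3 was well above background. It was 5.98, 6.61 and 6.45 on d 9 and 6.86, 6.70 and 6.78 on d 16. All later values thus lay above all d 2 values. The level rose by 2.87 ± 0.22 (SE) from d 2 to d 9 (limma, adjusted p = 0.00075) and by 3.30 ± 0.22 from d 2 to d 16 (adjusted p = 0.000197).

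On the other Atp2b2 probe, A_44_P535337, which was well above background on all 9 whey arrays, the level was 4.45, 4.04 and 4.42 on d 2. It was 5.57, 5.95 and 5.59 on d 9 and 6.10, 5.89 and 6.09 on d 16. The rise was 1.401 ± 0.17 to d 9 (limma, adjusted p = 0.00341) and 1.72 ± 0.17 to d 16 (adjusted p = 0.000644). The probes thus shared the direction. The size of the rise depended on the background correction: with normexp it was 1.03 to d 9 and 1.32 to d 16 on A_44_P139697, which was not well above background on 2 of 3 d 2 arrays, and 0.60 and 0.80 on A_44_P535337, still past the test. Between d 9 and d 16 neither passed the test, with differences of 0.43 (adjusted p = 0.328) and 0.32 (adjusted p = 0.342). Within slide 2 the rise to d 9 was 2.49 and 1.28.

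Atp2b1, the more widely expressed plasma membrane pump, was dim. Its probe A_43_P12761 was well above background on 2 of 3 d 9 arrays, 1 of 3 d 16 arrays and no d 2 array, and its differences from d 2 (0.81 and 0.43) did not pass the test (limma, adjusted p = 0.375 and 0.628). The 95% interval from d 2 to d 9 ran from -0.60 to 2.21, which includes 0. The other probe, A_44_P245665, was well above background on 2 of 3 d 16 arrays but under the signal minimum and was not tested.

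Atp2c1, the Golgi pump that also carries manganese, gave different answers on its probes. On A_44_P506069 the level was 5.43, 5.24 and 5.35 on d 2, then 6.28, 6.30 and 5.89 on d 9 and 6.27, 6.26 and 6.55 on d 16. It rose by 0.82 ± 0.16 to d 9 (limma, adjusted p = 0.013) and by 1.02 ± 0.16 to d 16 (adjusted p = 0.00342), and the later days did not overlap d 2. On A_43_P13146 the level was 5.04, 4.01 and 3.72 on d 2, with a spread between dams (SD 0.69) that covered its values on d 9 (4.36 to 4.65) and d 16 (4.34 to 4.76). Its differences of 0.25 to each later day did not pass the test (limma, adjusted p = 0.604 and 0.592). Within slide 2 the rise of A_44_P506069 to d 9 was 0.81 and no longer passed (limma with a slide block, adjusted p = 0.126), and without dam 2 on d 9 it was 0.74 (adjusted p = 0.0519). With spike-in scaling its rise to d 16 was 1.67 and did not pass (adjusted p = 0.176). With the normexp background its rises were 0.32 and 0.47, still past the test. Without dam 1 on d 2, A_43_P13146 was called from d 2 to d 16, with a rise of 0.64 (adjusted p = 0.0433).

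Atp2a2, the pump of the endoplasmic reticulum, had 3 probes, of which the 2 that could be tested did not pass over any pair of days. Probe A_44_P187080 is printed in 10 spots, whose SD within an array was 0.06 to 0.20 on the log2 scale, against an SD between dams of 0.11 to 0.34. Its level was 7.20, 7.11 and 6.98 on d 2, 6.83, 6.97 and 6.33 on d 9 and 7.01, 7.32 and 7.34 on d 16. The differences were -0.38 to d 9 and 0.13 to d 16 (limma, adjusted p = 0.194 and 0.652), with a 95% interval of -0.31 to 0.56 for the latter. Probe A_44_P187083 differed by 0.16 and 0.57 (adjusted p = 0.613 and 0.0713). Its difference to d 16 did pass with the normexp background, a minimum signal of 100, the slide as a random block and without dam 3 on d 9 (limma, adjusted p = 0.0278 to 0.0487). A_44_P282482 was well above background on 1 d 16 array, under the signal minimum, and was not tested.

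Calm2 rose by a small amount and Calm3 did not pass the test. The Calm2 level was 10.93, 10.81 and 10.88 on d 2, 11.13, 10.91 and 10.81 on d 9 and 11.37, 11.24 and 11.32 on d 16. The d 16 values lay above those of both earlier days. The rise to d 16 was 0.43 ± 0.12 over d 2 (limma, adjusted p = 0.0305). The difference between d 2 and d 9 was 0.08 (adjusted p = 0.681) and that between d 9 and d 16 was 0.36 (adjusted p = 0.176). The Calm3 level was 9.19, 9.09 and 9.11 on d 2, 9.27, 9.36 and 9.49 on d 9 and 9.29, 9.77 and 9.58 on d 16, and from d 2 to d 16 it differed by 0.42 (adjusted p = 0.0677). That difference did pass with the normexp background, a minimum signal of 100, the slide as a random block and without dam 1 on d 16 (limma, adjusted p = 0.0318 to 0.0448), and by the unadjusted Tukey-Kramer test. The call of Calm2 from d 2 to d 16 was lost when arrays were scaled to their 75th percentile (0.30, adjusted p = 0.0812) or to their spike-in controls (0.90, adjusted p = 0.536), and without dam 2 on d 2, dam 3 on d 2 or any 1 of the d 16 arrays (adjusted p = 0.0612 to 0.0946). Calmodulin genes have close copies in the genome, and reads of such a copy by these probes were not examined.

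Pthlh, the secreted hormone of the set, was at or near background on d 2 and was measured on every later array. Its level was 3.49, 2.62 and 3.69 on d 2, with only dam 3 well above background, 5.40, 5.94 and 5.41 on d 9 and 6.91, 6.64 and 6.23 on d 16. The 3 days did not overlap. The rise was 2.32 ± 0.32 to d 9 (limma, adjusted p = 0.00483) and 3.33 ± 0.32 to d 16 (adjusted p = 0.000625), and the difference of 1.01 from d 9 to d 16 did not pass (adjusted p = 0.158). On d 2 the probe was not well above background on 2 of 3 arrays, so the size of these rises is uncertain, and with the normexp background they were 0.68 and 1.07, still past the test. Within slide 2 the rise to d 9 was 1.89 and did not pass (limma with a slide block, adjusted p = 0.067). Casr, the receptor that senses extracellular calcium, was not well above background on any array, in whey or in serum.

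Against serum the members fell on both sides. Pcp4 was not well above background in serum, and its whey level was at least 5.91-fold higher on d 2, at least 72.7-fold on d 9 and at least 446-fold on d 16. Each bound sets the day's mean against 5.85, the lowest log2 level of any probe well above background on the serum array. Of the 13 member probes well above background on any array, 4 were over 4-fold higher in whey and 2 in serum, against 27.2% and 15.8% of all 21154 such probes. The other 3 probes past 4-fold in whey (both of Atp2c1 and A_44_P187083 of Atp2a2) and 1 of the 2 in serum (A_43_P12761 of Atp2b1) were not well above background in serum, so their folds are not given.

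In serum 5 member probes were well above background. Calm2 was lower there, at 9.18, than its whey mean of 11.05 ± 0.22 (SD, n = 9). The other 4 were higher in serum, except with spike-in scaling: Calm3 at 10.66 against 9.35 ± 0.23, Atp2b2 on A_44_P535337 at 7.61 against 5.35 ± 0.81, Atp2a2 on A_44_P187080 at 7.91 against 7.01 ± 0.31, and Pthlh at 6.78 against 5.15 ± 1.52. Pthlh in serum lay within its d 16 whey range of 6.23 to 6.91. Before normalization its serum signal was 12.36, under the minimum of 20 used for detection, against 110.1 to 179.5 on d 16. The serum signal of A_44_P535337 of Atp2b2 was 19.63, also under that minimum. With each array scaled to its spike-in controls, whey was the higher by 2.26, 1.34, 2.78 and 1.82 for the 4 probes, in the order given. Other probes of Atp2b2 and Atp2a2 went the other way and were not well above background in serum. On A_44_P139697 of Atp2b2 the whey mean was at least 1.41-fold higher on d 9 and 1.90-fold on d 16. On A_44_P187083 of Atp2a2 it was at least 1.08-fold higher on d 16. Their earlier days had no such bound. The serum pool also showed blood cell messages, with 4 of 4 platelet genes and 3 of 3 erythroid genes on the array well above background, and their part in these values was not tested.

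Genes of the secretory mammary epithelium list went both ways from d 2 to d 16. Csn2, Wap and Lalba rose (limma, adjusted p = 0.00567, 0.0162 and 0.00966). Krt8 fell from 9.34 to 8.18 (adjusted p = 0.006) and Krt18 on A_44_P400494 from 13.24 to 12.52 (adjusted p = 0.0206). Csn1s1, Csn3, Elf5, Glycam1 and the other Krt18 probe did not pass. These changes are per equal mass of RNA. By the study's qPCR on equal volumes of whey, Csn1s1, Csn2 and Wap did not change, and Csn3 and Lalba were higher in colostrum. Markers of other cells were measured in the same whey. Of 8 genes of myoepithelium and smooth muscle, 7 were on the array, 6 passed the background on each whey array and Oxtr on none. The log2 of their summed normalized signals, 1 probe per gene, ran from 9.32 to 9.93 on d 2, 8.19 to 10.73 on d 9 and 10.68 to 11.19 on d 16. Such a sum follows its brightest probe, here Tagln, with means of 9.03, 9.28 and 10.57. No probe of these genes passed the test over any pair of days. Of the 6 macrophage genes 3 passed the background on each whey array and Csf1r on none. The log2 of their summed signals was 8.41 to 8.83, 8.31 to 9.46 and 10.11 to 10.66. The macrophage genes went both ways from d 2 to d 16. C1qb, a complement subunit, rose from a mean of 5.08 to 8.77 (limma, adjusted p = 0.00105) and Fcer1g, an Fc receptor chain, from 5.44 to 9.16 (adjusted p = 0.000816), and both C1qa probes and Cd68 rose too. Cd14 fell on both its probes, on A_44_P469584 from 8.11 to 6.23 (adjusted p = 0.00952). Of the 7 neuron genes on the array, where Pcp4 is best known, 0 passed it on each whey array and 5 (Map2, Nefl, Snap25, Syp and Tubb3) passed on none. Pcp2, another Purkinje cell gene, passed it on 7 of 9 whey arrays and rose from 3.27 on d 2 to 4.64 on d 16 (limma, adjusted p = 0.0228). Of 7 cardiac and skeletal muscle genes, Acta1 alone passed the background on each whey array and 4 on none. From d 2 to d 16 Ckm rose from 2.60 to 5.68 and Tnnt2 from 3.34 to 5.33 (limma, adjusted p = 0.000257 and 0.000817). Acta1 did not pass (adjusted p = 0.253). Of 6 neutrophil genes 0 passed the background on each whey array, and no tested probe passed the test. The part of myoepithelial, macrophage, neuronal, muscle and neutrophil messages in the values of Pcp4, Atp2b2, Atp2c1, Calm2 and Pthlh was not tested. In whey, more RNA from a cell type and more of a message per cell cannot be told apart.

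The day course of Pcp4 was set beside all 7257 other probes with a gene symbol that were well above background on every whey array, by Pearson's r over the 9 arrays. The most similar were Csn1s2b (r = 0.985), a casein gene, Dynlrb1 (0.984), a dynein light chain, Sertad2 (0.981), Gnas (0.979), the stimulatory G protein alpha subunit, and Ada (0.978), adenosine deaminase. Only Csn1s2b had changes of like size, with means of 9.40 ± 0.22, 13.52 ± 0.27 and 15.92 ± 0.26 (SD, n = 3) on d 2, d 9 and d 16. Dynlrb1 moved by 0.40 from d 2 to d 16, Sertad2 by 0.80, Gnas by 0.88 and Ada by 1.48. With spike-in scaling r was 0.988 for Csn1s2b, 0.90 for Ada, 0.80 for Gnas, 0.80 for Sertad2 and 0.71 for Dynlrb1. The 9 arrays share dams, slides and days, so r mostly reflects the order of the 3 days.

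The most opposite probes were those of Ptpn18 (r = -0.991), a protein tyrosine phosphatase, Dbi (-0.984), the acyl-CoA-binding protein, Ifitm2 (-0.981), an interferon-induced membrane protein, Rps9 (-0.981), a ribosomal protein, and Chaf1b (-0.977), a chromatin assembly factor subunit. Chaf1b had the largest difference of them, -4.57 from d 2 to d 16. With spike-in scaling, r turned positive for Ptpn18 (0.21), Dbi (0.09) and Rps9 (0.47). Among the member probes well above background on every whey array, Atp2b2 on A_44_P535337 was closest to Pcp4 (r = 0.945). It was followed by Atp2c1 on A_44_P506069 (0.899), Calm3 (0.813), Calm2 (0.797), Atp2a2 on A_44_P187083 (0.65) and Atp2c1 on A_43_P13146 (0.31). The Atp2a2 probe with 10 spots was at 0.06. With spike-in scaling these members lay closer together, from 0.69 for the Atp2a2 probe with 10 spots to 0.90 for Atp2b2. Pthlh, Atp2b1 and the other Atp2b2 probe, A_44_P139697, were not well above background on every whey array and were not compared.

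**Figure D3:**
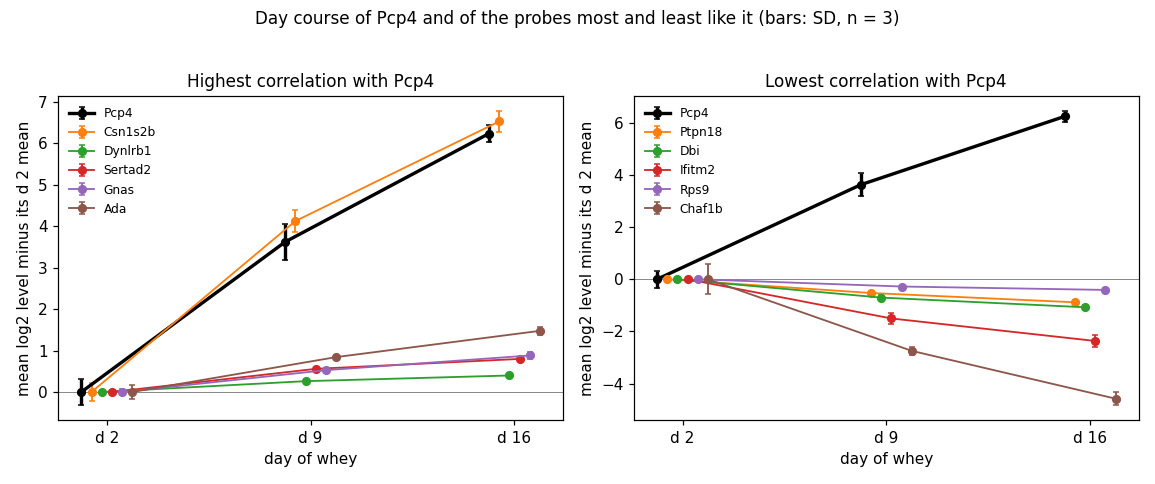
Mean log2 level on d 2, d 9 and d 16 (x axis) minus the d 2 mean (y axis) for Pcp4 and the 5 probes with the highest (left) and lowest (right) Pearson's r with it over the 9 whey arrays, with SD bars (n = 3). Csn1s2b runs beside Pcp4 with a difference of 6.53 by d 16, while the other similar probes reach 0.40 to 1.48; with spike-in scaling r turns positive for Ptpn18, Dbi and Rps9.

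The 250 bases before the start of Pcp4 and of Csn1s2b are shown because these messages had the most similar course. They are from RefSeq on assembly GRCr8, at chr11:49269936-49270185 on the plus strand and chr14:20545619-20545868 on the minus strand, 5′ to 3′. Capitals mark TTCNNNGAA, the palindrome bound by STAT5, which prolactin activates in mammary epithelium. The motif reads the same on both strands.
Pcp4 upstream: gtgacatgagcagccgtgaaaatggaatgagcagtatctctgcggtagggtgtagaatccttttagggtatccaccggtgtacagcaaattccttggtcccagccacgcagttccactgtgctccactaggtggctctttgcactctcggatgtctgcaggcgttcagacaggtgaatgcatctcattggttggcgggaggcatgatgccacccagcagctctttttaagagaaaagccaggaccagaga
Csn1s2b upstream: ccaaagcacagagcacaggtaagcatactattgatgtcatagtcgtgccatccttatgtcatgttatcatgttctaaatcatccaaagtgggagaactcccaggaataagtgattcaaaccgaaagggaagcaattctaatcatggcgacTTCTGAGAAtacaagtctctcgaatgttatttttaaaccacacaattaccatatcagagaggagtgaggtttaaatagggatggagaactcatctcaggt
The motif starts 100 bases before the start of Csn1s2b and has no match in this window of Pcp4. It was present in the same window of 7.67% of all 33469 promoters of the table. Of the members, 6 genes were in the table and 0 had a match. Of the 5 similar genes 4 were in the table and Csn1s2b and Ada had a match, and of the 5 opposite genes all were in it and 0 had one. A match describes the letters and says nothing of binding.

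Other genes of calcium handling moved less evenly. A list of 103 genes in 8 groups had 58 tested probes of 46 genes. Between d 2 and d 9, 4 probes rose and 5 fell (15.5% of the list, against 17.7% of all probes). Over d 2 to d 16, 10 rose and 5 fell (25.9%, against 28.5% of all probes). Over the last interval 0 changed by limma, with 8 at an unadjusted p under 0.05 and 0 by the adjusted Tukey-Kramer test. Of all 16849 probes, 239 changed by limma over that interval, 3157 had an unadjusted p under 0.05 and 0 passed the adjusted Tukey-Kramer test. The median log2 change of the list was 0.17, 0.32 and 0.07, against 0.11, 0.04 and -0.06 over all probes. The shares thus lay near those of all probes. The counts depended on single arrays. For d 9 over d 2 they were 4 without dam 1 or dam 2 on d 2, 2 without dam 2 on d 9 and 1 without dam 3 on d 9, and for d 16 over d 2 they were 9 without dam 2 on d 2, 9 without dam 2 on d 16 and 6 without dam 3 on d 16. Of all probes tested, the same fits, in the same order, called 2270, 1544, 1268 and 2556 for d 9 over d 2. For d 16 over d 2 they called 3278, 3102 and 2742. With the slide as a block 1 probe of the list was called from d 2 to d 9, against 499 of all 16849.

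Of 14 probes of calcium store proteins, 3 rose and 1 fell between d 2 and d 16 (28.6%, against 28.5% of all probes). The risers were Nucb2 (nucleobindin 2, a calcium-binding protein), which rose by 0.89 ± 0.26 (SE; limma, adjusted p = 0.0362), Canx (calnexin, the chaperone of the endoplasmic reticulum), by 0.81 ± 0.25 on A_44_P111118 (adjusted p = 0.0437), and Sdf4 (Cab45, which sorts cargo with calcium in the Golgi), by 0.62 ± 0.16 (adjusted p = 0.0268). The other Canx probe, A_44_P121039, differed by 0.38 and did not pass (adjusted p = 0.309). Of 18 probes of calmodulin-dependent enzymes, 4 rose and 1 fell over the same days (27.8%), so both groups lay near the share of all probes. Ppp3r1, the regulatory subunit of calcineurin, gave opposite signs on its probes. On A_43_P10391 it rose by 0.49 ± 0.13 to d 9 (limma, adjusted p = 0.0395) and by 0.44 ± 0.13 to d 16 (adjusted p = 0.0387). On A_44_P149148 the differences were -0.49 and -0.44 and did not pass (adjusted p = 0.0829 and 0.0878). Rcan1, an inhibitor of calcineurin, rose by 0.67 ± 0.16 to d 16 (adjusted p = 0.02). With 75th percentile scaling the rise of Ppp3r1 on A_43_P10391 to d 16 did not pass (0.33, adjusted p = 0.116), and with spike-in scaling none of the rises of Nucb2, Canx, Sdf4, Rcan1 and Ppp3r1 to d 16 did (adjusted p = 0.253 to 0.521).

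Iqgap1, a calmodulin-binding scaffold of the cytoskeleton, was called on 1 of 3 probes, A_44_P424087, which fell by 0.76 ± 0.20 (SE) to d 9 (limma, adjusted p = 0.0368) and turned to 0.63 with spike-in scaling. With the normexp background its difference was -0.18 (adjusted p = 0.205). The other probes, A_44_P157645 and A_44_P856007, differed by -0.43 and 0.17 and did not pass (adjusted p = 0.0971 and 0.711). Of the hormone and receptor genes 5 probes were tested, of which 1 rose and 1 fell from d 2 to d 16 (40%, against 28.5% of all probes). The other calcium pumps and exchangers had 0 changed of 4 probes.

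**Figure D4:**
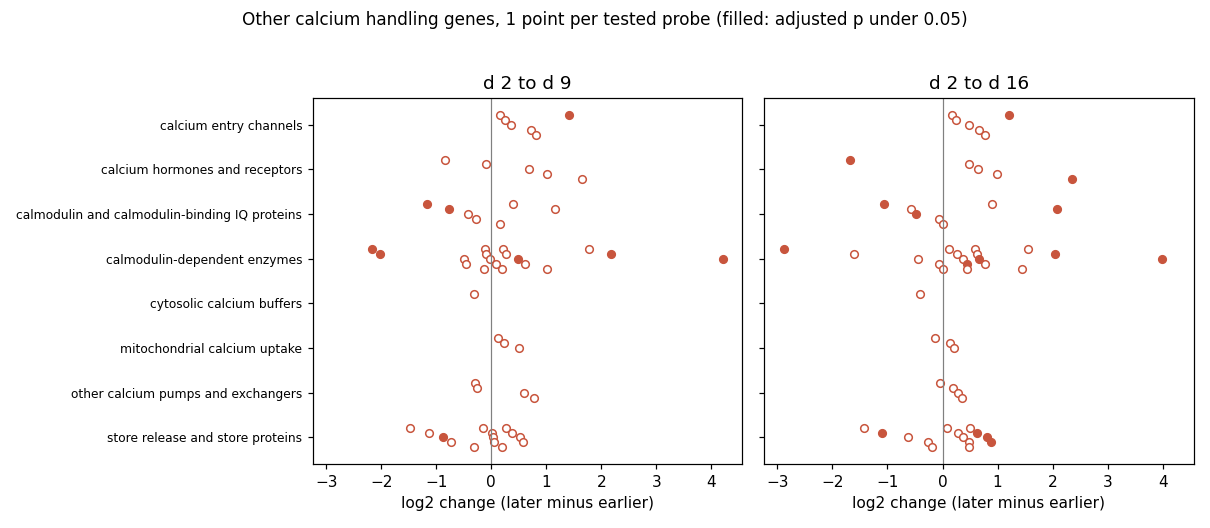
Log2 change (x axis, later minus earlier day) of the 58 tested probes of other calcium handling genes, by group (y axis), for d 9 over d 2 (left) and d 16 over d 2 (right). Filled points passed an adjusted p of 0.05, 9 on the left and 15 on the right, and lie on both sides of 0; with spike-in scaling the called Iqgap1 probe turns positive.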

How the data were processed

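Whey and serum RNA (100 ng per array, amplified and labelled with cyanine 3) had been hybridized to 1-colour Agilent rat arrays. The deposited processed signal is a linear intensity from Feature Extraction 9.5.3.1 (the authors' scanner software, as their processing notes give it), background-subtracted and not normalized between arrays. The deposited mean signal and background are intensities without subtraction, and the deposited flags are other values of 0 or 1. A series table of values the authors normalized has 10 columns whose names match no sample label and was not used. Gene names and positions are those of the array design (rn4).

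Here log2 processed signals were quantile normalized over 10 arrays, as the study's methods state. Control spots were left out, spots with an outlier flag (93 to 121 per array) were set to missing and spots of a probe averaged. No spot was saturated. Probes well above background with a signal over 20 on at least 1 whey array (16849) were tested with limma 3.58.1 (lmFit and eBayes, two-sided, group means, 9 whey arrays, 1.82 prior degrees of freedom) in R 4.3.3 with data.table (version 1.17.8) and jsonlite 2.0.0, with Benjamini-Hochberg adjustment and a threshold of 0.05. All adjusted p-values are from limma unless another test is named. Serum, 1 array, entered no test. The number of arrays limits the precision. The fit was tested on simulated data.

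Groups and dam numbers come from the sample titles. Dams are the same animals on each day, so a dam block was an alternative. Deviations from the day means of the same dam correlated at -0.018 to 0.218 (9 pairs) and of different dams at -0.254 to 0.158 (18 pairs). Alternatives were 75th percentile and spike-in scaling (8 control probes), whey-only quantile normalization, normexp background (offset 50), no filter, a minimum signal of 100, slide as a fixed or random block, the Tukey-Kramer test of the study's methods, and leaving out each whey array. Genes were named by rule: all member probes, the calcium list genes with up to 5 largest rises and falls per pair of days among called probes well above background on all 6 arrays, and the 5 probes most and 5 least correlated with Pcp4. One gene that this rule names is not reported here. The members and gene lists were chosen with earlier results of these data known.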

Additional observations from a re-analysis of the deposited data

How the results depend on the processing

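Pcp4 was higher on the later day under every alternative, with a difference of d 9 over d 2 of 5.06 with spike-in scaling and 3.21 with the normexp background, of d 16 over d 2 of 6.80 and 5.67, and of d 16 over d 9 of 1.74 with spike-in scaling. Leaving out single arrays gave 3.37 to 3.79, 6.07 to 6.38 and 2.45 to 2.86. Spike-in scaling put the median of all probes at 1.52, 0.60 and -0.91 over the 3 pairs of days, against 0.11, 0.04 and -0.06. The calls of both Atp2b2 probes against d 2 held under all alternatives run, and those of Pthlh to d 16 too, though with the normexp background their rises shrank to 1.03 and 1.32 (A_44_P139697), 0.60 and 0.80 (A_44_P535337) and 1.07 (Pthlh). Of the 10 tested member probes other than Pcp4, spike-in scaling called 7 for d 9 over d 2 and 3 for d 16 over d 2. Of all 16849 probes it called 6935 and 781. For d 16 over d 2, the normexp background called 7 of 10, against 4941 of 16849. A minimum signal of 100 gave 7 of 8, against 4133 of 9605, and the slide as a random block 7 of 10, against 5695 of 16849. The slide as a fixed block left 2 from d 2 to d 9, against 499 of 16849. The unadjusted Tukey-Kramer test called 1 from d 9 to d 16, against 2040 of 16849. Without single arrays the member counts over the 3 pairs of days were 3 to 4, 4 to 6 and 0. Of all 14729 to 16787 probes tested in those fits, 1268 to 2686, 2742 to 4953 and 23 to 265 were called. Without dam 3 on d 9, only 9 member probes were tested. With the dam as a replicate block the member counts were 4, 5 and 0, the same as without it, and the block changed the call of no member probe.

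For the calcium list, the counts over all probes stand in brackets. From d 2 to d 9 it gave 24 of 58 with spike-in scaling (6935 of 16849) and 4 of 58 with all probes tested (2438 of 40988). A minimum signal of 100 gave 5 of 24 (2976 of 9605) and the slide as a fixed block 1 of 58 (499 of 16849). The adjusted Tukey-Kramer test gave 1 of 58 (1287 of 16849). Leaving out single arrays gave 1 to 9 of 48 to 58 (1268 to 2686 of 14729 to 16787). From d 2 to d 16 the list gave 5 of 58 with spike-in scaling (781 of 16849) and 4 of 58 by the adjusted Tukey-Kramer test (2678 of 16849). Without single arrays it gave 6 to 17 of 48 to 58 (2742 to 4953 of 14729 to 16787). From d 9 to d 16 it gave 2 of 58 with the normexp background (869 of 16849) and 1 of 24 with a minimum signal of 100 (608 of 9605). The slide as a random block, with a consensus correlation of -0.08, gave 2 of 58 (680 of 16849). The unadjusted Tukey-Kramer test gave 3 of 58 (2040 of 16849). Leaving out single arrays gave 0 to 1 of 48 to 58 (23 to 265 of 14729 to 16787). With the dam block the list gave 8, 15 and 0 over the pairs of days (3088, 4864 and 110 of 16849). The number of member probes over 4-fold higher in whey than in serum was 2 with 75th percentile scaling, 8 with spike-in scaling and 1 with the normexp background, and over 4-fold higher in serum 1, 0 and 0. The share of all probes past 4-fold was not computed for these 3 settings, so the counts cannot be set against it. Whey minus serum reversed with spike-in scaling for Calm3 (2.26), Atp2b2 on A_44_P535337 (1.34), Atp2a2 on A_44_P187080 (2.78) and Pthlh (1.82). The slide as a fixed block gives no value for d 16, which lies on a slide of its own. Signal over background limits Atp2b1, Casr and the d 2 values of Atp2b2 and Pthlh. The cause of these shifts was not tested.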
